A study of Mus musculus with 40 samples.

Results

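Tumour passage N2.2 was compared with the passage before it, N2.1, over 8 of the 40 samples of the series, chosen by their labels: 3 N2.2 tumours (A, B and C) and 5 N2.1 tumours (A to E). All 8 are cell cultures from tumours that grew from YUMM1.7, a mouse melanoma line that was derived from C57BL/6 mice. The tumour cells had been dissociated and kept in culture for 1 to 3 passages before poly(A) RNA was sequenced, so each library describes cultured tumour cells and not whole tumour tissue. N2.2 and N2.1 are consecutive steps of one chain of transplantations, and each step was made once in the series. The labels give neither the meaning of N2 nor the animals used. The values are signal at single annotated copies of transposable elements, the repeats that make up much of the mouse genome. The neighbouring steps of the chain, F2 (5 tumours, before N2.1) and N2.3 (3 tumours, after N2.2), are described beside some results without a test.

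Transposable elements are mobile sequences that fall into endogenous retroviruses with long terminal repeats (LTRs), LINE-1 (L1) elements and short SINEs such as B1 and B2. Most copies are kept silent by DNA methylation and by histone methylation, and tumour cells often lose part of that silencing. A read in a repeat copy need not come from the element's own promoter: many copies lie in the exons or introns of genes and are read as part of the host gene's RNA. For that reason the signal of copies that overlap the exons of 1 gene was also summed for that gene, which gives a partial measure of the gene through its repeats.

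The deposited values of each library are whole reads divided by 1 factor, and N2.2 libraries held 1901295 to 2976730 such reads, against 1817555 to 2575221 in N2.1 libraries. A single read was worth 0.659 to 1.04 signal in N2.2 and 0.752 to 1.04 signal in N2.1. Correlations of log2 signal between tumours were 0.830 to 0.899 within N2.2, 0.795 to 0.876 within N2.1 and 0.785 to 0.869 between the groups. N2.1 B stood apart from its group: its mean correlation with the other N2.1 tumours was the lowest at 0.810, and its summed signal over 34 interferon response genes was 37470, against 16348, 15457 and 20324 in N2.2 A to C and 10665 to 23628 in the other N2.1 tumours. Within their group, N2.1 C and E stood apart in another way, with a shift of chromosome 3 of 0.34 (log2) in both. It was -0.07 to 0.00 in N2.2 and -0.09 to -0.01 in the other 3 N2.1 tumours. F2 A to E, from the passage before, had shifts of 0.31, 0.16, -0.02, 0.24 and 0.30. The keratinocyte marker Trp63 was at 0 in all 8 libraries. Of 12 listed melanocytic markers, 4 had exon copies. Tyr, a pigment gene of melanocytes, was at 0 in all 8 libraries, and Mlana was at 0 in N2.2 and at 0 to 0.883 in N2.1. Gpnmb and Met had signal in all 8 libraries, and these 4 markers alone do not establish a melanocytic identity. Of the 6 fibroblast markers with exon copies, Dcn and Fap were at 0 in all 8 libraries as well. Col1a1 had 0 to 2.09 in N2.2, against 0 to 0.883 in N2.1, and Thy1 0 to 1.045 in N2.2, against 0 to 3.01 in N2.1. Pdgfra had 353 to 422 in N2.2, against 236 to 1171 in N2.1, and Pdgfrb 711 to 821 in N2.2, against 391.8 to 1588 in N2.1. The sum of these 6 was 1064 to 1183 in N2.2 and 629 to 2759 in N2.1, highest in N2.1 B. Its part in the results was not tested.

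Few repeat copies were called as different between the passages. With limma on log2(signal + 1), 25 copies rose in N2.2 (0.0753% of the 33215 copies tested) and 12 fell (0.0361%), at an adjusted p under 0.05. Among host genes, 21 rose (0.284% of 7388 tested) and 15 fell (0.203%). Among subfamilies, which are sums of all copies of 1 repeat name, 2 rose (0.199% of 1004) and 1 fell (0.0996%). The median log2 fold change over all tested features was 0.00 for copies, 0.00 for genes and 0.02 for subfamilies. The N2.2 and N2.1 values did not overlap for 24 of the 25 copies that rose, 11 of the 12 that fell, 20 of the 21 genes that rose and 14 of the 15 that fell. The exceptions were copies in Speg and Zfp704, which are also the exceptions among the genes. The calls rest on the same values, so the lack of overlap is no separate support for them. The share of all tested features without overlap is not given here.

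The number of calls depended on single libraries. Leaving out 1 library at a time gave 17 to 50 copies and 4 to 45 genes. The lowest gene counts were 4 without N2.2 C, 9 without N2.1 C, 12 without N2.2 A, 18 without N2.2 B and 19 without N2.1 E. For copies the counts fell to 17 without N2.2 A, 19 without N2.2 B, 19 without N2.2 C and 24 without N2.1 E. With N2.1 C and E both left out, 16 copies and 6 genes were called. Beside the calls below the highest limma adjusted p over the 8 fits that each leave out 1 library is given, together with the libraries whose absence ended the call. Only Zfp503, Mid2, Ptpn7 and Zfp978 among the 36 genes, and 8 of the 37 copies, were called in all 8 of those fits. No called copy, gene or subfamily changed its direction in them. Mid2, Ptpn7 and Zfp978 lost their calls with the tumour letter as a replicate block, and Mid2 also when the 8 samples were fitted alone.

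The count tests of edgeR and DESeq2, run on the whole reads recovered from the signal, ended some of these calls. Among genes, Kank4, Gm30835 and Gm3654 were called with neither tool (adjusted p of 0.0503, 0.0868 and 0.173 with edgeR and of 0.430, 0.382 and 0.0871 with DESeq2), and Ociad2, Phactr2 and Nek7 (0.0503 each), Hdgfl3 (0.0723) and Degs1 (0.0815) missed with edgeR alone. Among copies, the PB1D10 copy in Ncmap was called with neither tool (0.0637 with edgeR, 0.0933 with DESeq2). With edgeR alone the copies that missed were MT2B2 in Ociad2, MER20B in Phactr2 and RLTR20A4 in Cachd1 (0.0608 each), L1MdFanc_II in Cdk14 (0.0620), RLTR4_MM-int on chromosome 18 (0.0631), Lx8 in Ak5 (0.0514) and Lx6 on chromosome 1 (0.0892). With DESeq2 alone they were MurSatRep1 in Zfp978 and B1_Mur2 on chromosome 4 (0.0567 each) and B1_Mus2 on chromosome 5 (0.0775).

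**Figure D1:**
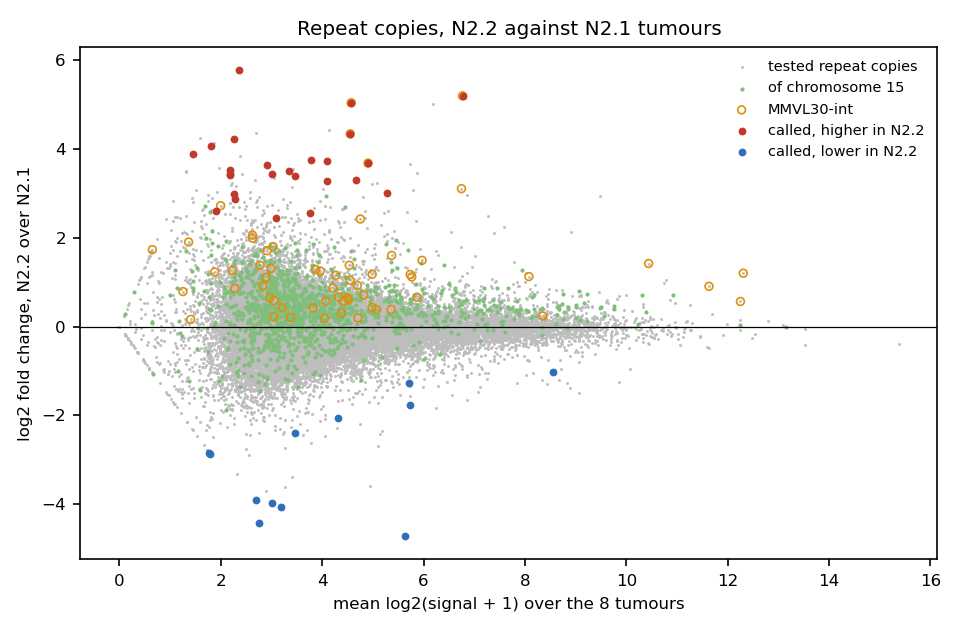
Each point is 1 tested repeat copy, with its mean log2(signal + 1) over the 8 tumours on the x axis and its log2 fold change, N2.2 over N2.1, on the y axis. The 25 copies that rose (red) and the 12 that fell (blue) lie far from a cloud centred on 0.00, while the 60 open circles of MMVL30-int all lie above 0 and the copies of chromosome 15 (green) sit above the cloud's centre at a median of 0.35.

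Zfp503, which encodes a zinc-finger repressor of transcription, had the lowest fitted log2 fold change of the genes that fell, on the log2(signal + 1) scale. Its single exon copy, a piece of MuRRS-int in the 5' UTR (chr14:21987495-21987585, mm10), had a signal of 7.25, 2.51 and 8.36 in N2.2 A, B and C, against 134, 164, 125, 208 and 233 in N2.1 A to E. All 3 N2.2 tumours were low and all 5 N2.1 tumours high, with a wide gap between them. The means were 6.04 ± 3.11 in N2.2 and 173 ± 46.9 in N2.1 (SD, n = 3 and 5), and the log2 fold change was -4.71 (SE 0.55, limma adjusted p = 2.1e-06 among genes). It was the 1 gene called under every alternative run, with an adjusted p of at most 0.000344 when 1 library was left out. Libraries of bulk cultures cannot tell fewer cells that carry an RNA from less of it per cell, here and below. In F2 the signal was 343 to 475, and in N2.3 it was 0, 0 and 19.7.

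Mid2, an X-linked ubiquitin ligase of the TRIM family that binds microtubules, and Ociad2, a mitochondrial protein with an OCIA domain, fell as well. Mid2 had 6.59, 0.837 and 5.22 in N2.2 A, B and C, against 53.7, 21.5, 169, 19.4 and 256 in N2.1 A to E. The groups did not overlap, and N2.1 C and E were far above the other N2.1 tumours. F2 tumours had 150 to 470 of Mid2. Its log2 fold change was -3.86 (SE 0.63, limma adjusted p = 0.000844, at most 0.0256 when 1 library was left out), and without N2.1 C and E together it was -2.73 (adjusted p = 0.0455). Both called copies lie in the 3' UTR of Mid2: a MamRep434 copy, a remnant of an old DNA transposon, with -3.97, and a MIRb copy, an ancient SINE, with -4.07. Ociad2 had 0.659, 1.67 and 0 in N2.2, against 19.3, 15.3, 104, 5.30 and 88.8 in N2.1. Again N2.1 C and E were the 2 highest. The log2 fold change was -4.13 (SE 0.79, limma adjusted p = 0.00851), and the call ended without N2.2 C (adjusted p = 0.117) and without N2.1 C and E together (-2.96, adjusted p = 0.164). Its MT2B2 copy in a coding exon, an LTR of the MERVL group, was at 0 in all 3 N2.2 tumours and at 5.30 to 83.1 in N2.1, which is at least 14-fold lower against a floor of 3 reads per library, or 9.29-fold without N2.1 C.

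The same 2 tumours were the highest in 8 of the 15 genes that fell and in 6 of the 12 copies that fell, against 1067 of all 7388 tested genes and 3758 of all 33215 tested copies. Phactr2, a regulator of actin and of protein phosphatase 1, had 1.98, 0 and 1.04 in N2.2, against 15.1, 20.5, 117, 3.53 and 106 in N2.1 A to E. Hdgfl3, a member of the hepatoma-derived growth factor family, had 14.5, 1.67 and 7.31 in N2.2, against 49.5, 70.6, 289.9, 29.1 and 235 in N2.1. Stard8 had 0.659, 0 and 1.04 in N2.2, against 9.24, 7.16, 116, 5.30 and 52.7 in N2.1. The N2.2 values were below all N2.1 values for each of the 3 genes, and N2.1 C and E held the top values. F2 tumours had 81.8 to 152 of Phactr2, 124 to 178 of Hdgfl3 and 4.2 to 45.6 of Stard8. Their log2 fold changes were -3.98, -3.75 and -3.74 in that order, with limma adjusted p of 0.0349, 0.0399 and 0.0428. The calls of Phactr2 and Hdgfl3 ended without any 1 of N2.1 B, C or E or N2.2 A, B or C, and that of Stard8 without N2.1 C or E or N2.2 A, B or C, with adjusted p of up to 0.217, 0.307 and 0.218. Without N2.1 C and E together none of the 3 was called: Phactr2 stood at -2.67 (adjusted p = 0.507), Hdgfl3 at -2.77 (0.483) and Stard8 at -2.43 (0.583). Part of the Hdgfl3 signal lies in exons shared with Tm6sf1 and cannot be given to 1 gene. The part that the chromosome 3 shift of N2.1 C and E plays in these values was not tested.

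Degs1, Pard3b and Zfp704 complete the 8 genes with N2.1 C and E on top, and in the other 7 that fell the order of the N2.1 tumours differed. Cachd1, a membrane protein that modulates calcium channels, had 4.61, 2.51 and 2.09 in N2.2, against 15.1, 12.3, 12.5, 17.7 and 69.2 in N2.1, with N2.1 E alone far above the rest. Its log2 fold change was -2.39 (SE 0.50, limma adjusted p = 0.016), and the call ended without N2.1 E, N2.2 B or N2.2 C (adjusted p of up to 0.125). Klf8, an X-linked transcription factor of the Krüppel-like family, had 18.4, 24.3 and 17.8 in N2.2, against 41.1 to 68.5 in N2.1, and a log2 fold change of -1.38 (limma adjusted p = 0.0312). Nek7, a kinase of mitosis and of the inflammasome, and Degs1, a desaturase of ceramide synthesis, were the 2 smallest declines at -0.66 (limma adjusted p = 0.0312) and -0.67 (adjusted p = 0.045), in highly read copies of 271 to 418 and 294 to 509 in N2.2, against 474 to 679.7 and 541 to 848 in N2.1. Pard3b, a relative of a cell polarity protein, was at 0 in all 3 N2.2 tumours and at 0.840, 2.05, 7.28, 1.77 and 6.02 in N2.1, at least 1.41-fold lower against the floor. The remaining declines were the poorly characterised Gm14419 (-2.86), Gm13111 (-2.19), an annotated antisense gene whose reads cannot be told from those of its partner strand, AC158975.2 (-1.01), which is 1 RLTR4_MM-int copy, and Zfp704 (-3.21), whose groups overlapped through N2.1 D at 0. Each of the calls after that of Cachd1 ended without any 1 of at least 3 libraries, with adjusted p of up to 0.516 (Degs1).

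Among the genes that rose, Ptpn7, a tyrosine phosphatase that acts on MAP kinases and is best known from blood cells, stood clear of the N2.1 spread. Its exon copies had 48.8, 39.3 and 44.9 in N2.2 A, B and C, against 2.52, 3.07, 7.27, 0 and 0.752 in N2.1 A to E. The N2.2 tumours were close to each other and all above the N2.1 tumours. This is a log2 fold change of 3.96 (SE 0.62, limma adjusted p = 0.000577, at most 0.00799 when 1 library was left out). A B1_Mur1 and a PB1D10 copy in its 3' UTR, both SINEs, rose by the same 3.42. In F2 Ptpn7 was at 0 in all 5 tumours, and in N2.3 it had 77.1, 93.1 and 142. Of 6 leukocyte markers, Ptprc, Adgre1 and Cd3e were at 0 in all 8 libraries, Itgam and Cd4 were above 0 in 1 library each and Csf1r in 2, and their sum was 0 to 1.04 in N2.2 and 0 to 1.02 in N2.1.

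Tdrd7, a Tudor-domain protein that takes part in transposon silencing in mouse germ cells, had 18.4, 15.9 and 27.2 in N2.2, against 1.68, 2.05, 0, 0 and 1.5 in N2.1. No N2.1 tumour came near the N2.2 values. Its log2 fold change was 3.52 (SE 0.61, limma adjusted p = 0.00216), and it lost its call only without N2.2 C (adjusted p = 0.0532) among the fits without 1 library. The whole of this signal comes from 1 MLT1A0 copy, an LTR of the MaLR group, at chr4:45965177-45965540 (mm10), which covers the annotated start of Tdrd7.

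The promoter windows of these genes, 250 bases before to 50 bases after the gene start as given by RefSeq on GRCm38.p6, are printed for Tdrd7, where a called repeat copy covers the gene start, and for Ptpn7 and Zfp503, which were called without any 1 library. In Tdrd7 (chr4:45965085-45965384, plus strand) the capitals mark the 208 bases that lie inside the MLT1A0 copy. In Ptpn7 (chr1:135132450-135132749, plus strand) and Zfp503 (chr14:21989552-21989851, minus strand) they mark each CG, the base pair step that DNA methylation acts on.
Tdrd7: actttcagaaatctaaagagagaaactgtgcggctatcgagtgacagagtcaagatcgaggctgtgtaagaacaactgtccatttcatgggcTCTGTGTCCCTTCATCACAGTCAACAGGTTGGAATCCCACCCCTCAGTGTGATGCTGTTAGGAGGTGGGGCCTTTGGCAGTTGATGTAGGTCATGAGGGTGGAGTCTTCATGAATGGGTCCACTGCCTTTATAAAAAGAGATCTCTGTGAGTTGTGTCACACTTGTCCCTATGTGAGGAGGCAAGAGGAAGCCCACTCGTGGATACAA
Ptpn7: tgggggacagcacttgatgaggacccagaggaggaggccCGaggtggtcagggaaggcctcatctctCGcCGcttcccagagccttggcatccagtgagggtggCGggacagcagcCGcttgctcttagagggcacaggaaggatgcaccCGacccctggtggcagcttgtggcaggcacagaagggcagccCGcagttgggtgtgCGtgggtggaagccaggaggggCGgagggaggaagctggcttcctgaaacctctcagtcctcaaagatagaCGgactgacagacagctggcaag
Zfp503: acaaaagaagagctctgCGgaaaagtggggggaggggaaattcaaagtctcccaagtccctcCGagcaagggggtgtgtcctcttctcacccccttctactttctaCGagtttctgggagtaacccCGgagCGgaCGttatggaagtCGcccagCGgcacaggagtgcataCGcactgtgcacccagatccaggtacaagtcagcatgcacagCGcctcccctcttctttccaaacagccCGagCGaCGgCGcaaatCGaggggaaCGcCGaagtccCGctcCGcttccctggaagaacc
Read 5′ to 3′, the Zfp503 window held 19 CG, the Ptpn7 window 10 and the Tdrd7 window 4, of which 1 lies in the repeat. RefSeq windows were found for 28 of the 36 called genes. The median was 20 CG in the 17 that rose, 19 in the 11 that fell and 21 in the 5055 tested genes with a window. The letters TATAAA, searched on both strands, occur in the repeat part of the Tdrd7 window, in 4 of the 28 windows and in 6.45% of the 5055.

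Zfp978 and Zfp979, zinc-finger genes of the cluster at the far end of chromosome 4, rose together. Zfp978 had 9.88, 109.6 and 8.36 in N2.2, against 0 in all 5 N2.1 tumours, at least 15.7-fold higher against the floor of 3 reads per library. N2.2 B was far above the other 2 N2.2 tumours, and without it the bound is 3.35-fold. In the fit it rose by 4.49 (log2, SE 0.69, limma adjusted p = 0.000532, at most 0.0246, without N2.2 B, when 1 library was left out). Zfp979 had 65.2, 207 and 98.2 in N2.2, against 37.8, 23.5, 4.16, 39.8 and 7.53 in N2.1, again highest in N2.2 B. Its log2 fold change was 2.65 (SE 0.50, limma adjusted p = 0.00778), and the call ended without N2.2 B or C (adjusted p of up to 0.0923). Genes of this cluster are near-identical copies, and the exons of Zfp978 overlap C230088H06Rik and Gm26624, so the assignment of these reads to single genes is uncertain.

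Padi2, an enzyme that converts arginine in proteins to citrulline, had 163, 166 and 94.0 in N2.2, against 8.40, 11.3, 9.35, 15.9 and 12 in N2.1. Every N2.2 tumour was several times above every N2.1 tumour. The log2 fold change was 3.5 (SE 0.76, limma adjusted p = 0.0269), and the call ended without N2.1 C or without any 1 N2.2 tumour (adjusted p of up to 0.112). Ncmap, known as a protein of noncompact myelin, had 75.8, 20.1 and 27.2 in N2.2, against 5.04, 12.3, 0, 1.77 and 0.752 in N2.1 (log2 fold change 3.44). Nipal3, a member of a magnesium transporter family, had 28.3, 37.6 and 38.7 in N2.2, against 12.6, 0, 9.35, 7.95 and 3.01 in N2.1 (2.69). Kank4, an adaptor of the cytoskeleton, had 67.2, 5.02 and 13.6 in N2.2, against 0.840, 0, 0, 0.883 and 1.5 in N2.1 (3.56), with N2.2 A far above B and C. The limma adjusted p was 0.0329 for Ncmap, 0.0423 for Nipal3 and 0.0312 for Kank4, and each of the 3 calls ended without any 1 of at least 4 libraries (adjusted p of up to 0.286, 0.167 and 0.334). Exons of Padi2 overlap Gm13031, so part of its signal cannot be given to 1 gene. These 4 genes and the Tdrd7, Zfp978 and Zfp979 genes lie on chromosome 4, which held 7 of the 21 genes that rose and 448 of the 7388 tested.

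Rhpn2 had 42.2, 19.2 and 38.7 in N2.2, against 5.04, 1.02, 3.12, 12.4 and 3.76 in N2.1 (log2 fold change 2.70, limma adjusted p = 0.016), a call that ended without N2.1 C, N2.2 A or N2.2 C (adjusted p of up to 0.12). Hspa4l, a chaperone of the heat shock 110 family, had the largest signal of the called genes, summed over 12 exon copies, with 1634, 1236 and 1679 in N2.2, against 741, 705, 679, 899 and 943 in N2.1. The groups did not overlap for either gene. Hspa4l had a log2 fold change of 0.93 (SE 0.23, limma adjusted p = 0.0456), and its call ended without any 1 of 7 libraries (adjusted p of up to 0.245). The remaining rises were Gm30835 (4.38), Gm48284 (2.89), Speg (2.60, overlapping groups), Gm3654 (2.51), AI467606 (2.38), Cela1 (1.71), the SUMO protease Senp1 (0.90), Rnf24 (0.83, whose exons overlap Gm14233 and Pank2), the ETS transcription factor Elf2 (0.80), Prepl (0.79) and Rbx1, a subunit of cullin ubiquitin ligases (0.72). These calls ended without any 1 of at least 2 libraries, with adjusted p of up to 0.337 (Prepl).

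**Figure D2:**
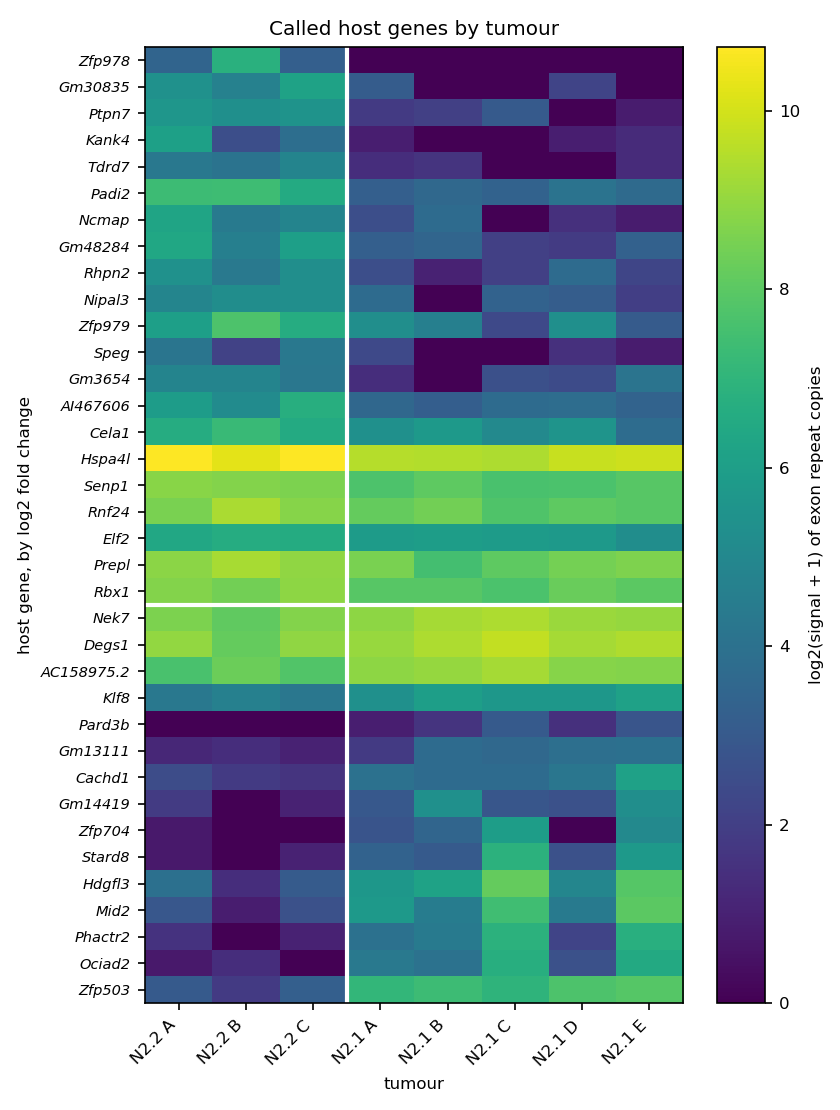
Rows are the 36 called host genes, sorted by log2 fold change from the highest rise at the top, and columns are the 3 N2.2 and 5 N2.1 tumours; colour gives log2(signal + 1) of the gene's exon copies. The upper 21 genes are brighter in N2.2, the lower 15 in N2.1, and N2.1 C and E are the brightest 2 columns in 8 of the lower 15.

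A group of 4 repeat copies inside the introns of Serpina1b, one of the mouse genes for alpha-1 antitrypsin, rose together within chr12:103776148-103803691. An IAPEz-int copy had 87.6, 60.2 and 112 in N2.2 A, B and C, against 8.40, 8.18, 3.12, 3.53 and 6.02 in N2.1 A to E (log2 fold change 3.71, SE 0.49, limma adjusted p = 2.16e-05 among copies). An L1MdF_II copy had 98.8, 92.9 and 125 in N2.2, against 19.3, 8.18, 7.28, 15.9 and 4.51 in N2.1 (3.30, SE 0.49, adjusted p = 0.000267). An L1MdTf_III copy had 159, 98.7 and 179.7 in N2.2, against 33.6, 15.3, 4.16, 29.1 and 19.6 in N2.1 (3.00, SE 0.54, adjusted p = 0.00492). For all of these copies each N2.2 tumour was above each N2.1 tumour. The fourth, a second IAPEz-int copy, had 36.0 to 42.8 in N2.2, against 3.12 to 10.6 in N2.1 (2.56). The first IAPEz-int copy and the L1MdF_II copy were called without any 1 library, while the L1MdTf_III call ended without N2.2 A or C (adjusted p of up to 0.089) and the second IAPEz-int call without any 1 of 6 libraries (adjusted p of up to 0.18). In F2 the 4 copies had 0 to 2.19. IAP elements are LTR retrotransposons of which some remain active in mice, and L1MdTf and L1MdF are L1 lineages. Serpina1b has near-identical paralogues next to it, so the place of these reads is uncertain, and 3 of the 4 copies also lie in Gm17043.

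MMVL30-int, the internal part of the VL30 retroelements, gave 4 of the 25 copies that rose, all intergenic. VL30 elements carry LTR promoters that respond to growth factors and stress in mouse and rat cells and do not code for complete viral proteins. The copy at chr4:143975533-143980475 had 492, 3921 and 567 in N2.2 A, B and C, against 108, 74.7, 4.16, 60.1 and 6.02 in N2.1 A to E. N2.2 B was far above the other N2.2 tumours, which were still far above every N2.1 tumour. This copy rose by 5.19 (log2, SE 0.78, limma adjusted p = 0.000285, at most 0.0265 when 1 library was left out). Its neighbour on the same chromosome rose by 3.67, and a pair on chromosome 13 by 5.03 and 4.33. These other 3 calls ended without N2.2 B (adjusted p of up to 0.303, 0.0968 and 0.121), and that of the neighbour also without N2.1 C or E. In N2.3 the first copy had 3065, 2773 and 1655.

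Values above 0 were found well beyond the 4 called copies, but the VL30 sum did not pass. All 60 tested MMVL30-int copies, of 209 in the table, had log2 fold changes above 0, with a median of 1.07 against 0.00 over all tested copies. In 16 of the 60 the groups did not overlap, and all 16 were higher in N2.2. The share of all tested copies without overlap is not given here, so the 16 have no background to be read against. The subfamily sum was 23396, 29701 and 30603 in N2.2 A, B and C, against 15017, 27217, 10223, 9494 and 11305 in N2.1 A to E. N2.1 B was inside the N2.2 range and the other N2.1 tumours were below it. The log2 fold change of 1.04 (SE 0.36) had a limma adjusted p of 0.414. The called copies made up 19.2% of the sum in N2.2 B, 2.89% and 3.17% in N2.2 A and C and 0.16% to 1.26% in N2.1. Copies of 1 subfamily are alike in sequence, and no source used here says how reads that fit several copies were counted, so the 60 copies are not independent.

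**Figure D3:**
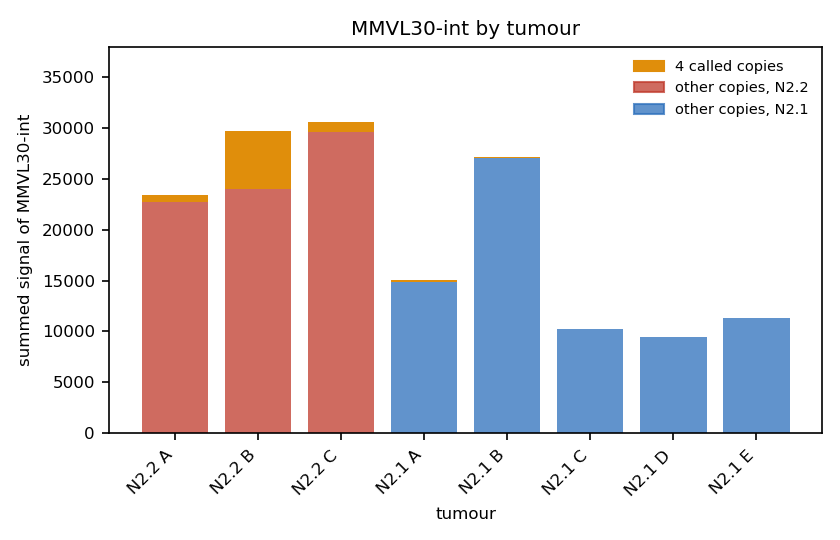
Bars give the summed signal of all MMVL30-int copies in the 3 N2.2 tumours (left, red) and the 5 N2.1 tumours (right, blue), with the 4 called copies in orange. The sums are 23396 to 30603 in N2.2, and N2.1 B, at 27217, is the only N2.1 tumour in that range.

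Away from genes, further single copies rose. A B1_Mus2 copy on chromosome 5, 9238 bases from the beta-actin gene Actb, had 93.6, 107 and 23 in N2.2, against 0, 0, 1.04, 0 and 0 in N2.1 (log2 fold change 5.76, SE 1.00, limma adjusted p = 0.00269). An L1MdF_I copy at chr12:115313895-115316035 had 18.4, 28.4 and 13.6 in N2.2, against 0, 0, 0, 1.77 and 0 in N2.1 (4.05), and one at chr1:103543028-103548366 had 19.8, 100.4 and 21.9 in N2.2, against 2.52, 3.07, 0, 7.95 and 0.752 in N2.1 (3.62). All N2.2 values of these copies were above all N2.1 values. Each of the 3 calls ended without N2.2 B, the first 2 also without N2.2 A and the last also without N2.1 C, with adjusted p of up to 0.0551, 0.0811 and 0.211. Intergenic copies made up 10 of the 25 that rose and 1 of the 12 that fell, and 10.5% of all copies tested. The 1 that fell, a B1_Mur4 copy on chromosome 4 near Map3k6, was at 0 in all 3 N2.2 tumours, against 7.56, 4.09, 6.24, 3.53 and 12 in N2.1, at least 2.63-fold lower against the floor.

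The share of all signal in intergenic copies was 8.61%, 8.49% and 9.09% in N2.2, against 7.92%, 7.66%, 7.14%, 6.65% and 7.23% in N2.1. Every N2.2 tumour was above every N2.1 tumour. The difference of 1.41 percentage points had a two-sided exact permutation p of 0.0357, the smallest that 3 against 5 samples allow, and did not pass adjustment over the 13 shares compared (adjusted p = 0.155). Without MMVL30-int the difference was 0.758 percentage points (exact p = 0.0714). Intron copies held 26.0% ± 0.766 in N2.2 and 24.8% ± 2.28 in N2.1 (SD, n = 3 and 5; exact p = 0.607). DNA transposons held 5.23% in N2.2 and 5.33% in N2.1, and the small cytoplasmic RNA repeats 1.12% in N2.2 and 1.20% in N2.1, both with the same smallest p and adjusted p = 0.155.

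Of the subfamilies, MuRRS-int, an endogenous retrovirus of the murine leukaemia virus type, fell. Its sum was 178, 218 and 164 in N2.2, against 343, 397, 323, 422 and 491 in N2.1. The groups were well apart. It fell by 1.07 (log2, SE 0.19, limma adjusted p = 0.0025), and the call ended without N2.2 C (adjusted p = 0.0819). The Zfp503 copy made up 79.9% of the difference in the means: without it the log2 fold change was -0.31 (adjusted p = 0.956), and over MuRRS-int copies outside exons it was 0.27, the opposite direction. The 2 subfamilies that rose were L1MdTf_III, with 808, 812 and 901 in N2.2, against 726, 413, 452, 527 and 531 in N2.1, and MTEa-int, the internal part of a MaLR element, with 459, 389.8 and 473 in N2.2, against 354, 309.9, 282, 330.4 and 321 in N2.1. L1MdTf_III had a log2 fold change of 0.69 (SE 0.16) and MTEa-int of 0.46 (SE 0.11), each with a limma adjusted p of 0.0343. The L1MdTf_III copy in Serpina1b made up 40.4% of the difference in that subfamily, and without it the log2 fold change was 0.47 (adjusted p = 0.484). Over tested copies alone it was 0.77 (adjusted p = 0.131), and it was no longer called. MTEa-int held no called copy, and the copy in Gm30835 made up 35.2% of its difference. Over copies outside exons MTEa-int stood at 0.29 (adjusted p = 0.935), which ended its call. Leaving out any 1 of N2.1 B, C, D or E or N2.2 A or C ended both calls (adjusted p of up to 0.316 and 0.434), and leaving out N2.2 B ended that of L1MdTf_III.

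The subfamilies next in line did not pass. On the higher side RLTR26D_MM (log2 fold change 0.72), RLTR1D (0.66), L1MdF_II (0.49) and RLTR12D (0.31) had limma adjusted p of 0.341 to 0.416. On the lower side MARE6, a conserved element, had 23.1, 20.9 and 16.7 in N2.2, against 66.3, 97.2, 79.0, 65.4 and 55.7 in N2.1 (-1.78, adjusted p = 0.21). Tigger22N1 (-0.75, adjusted p = 0.21), MLT1G1-int (-1.60), L1M7 (-0.48) and RLTR6-int (-0.35) followed. These 9 subfamilies were picked among those whose groups do not overlap, so their lack of overlap is not a result. Over copies outside exons alone, Tigger22N1 came to 0.020, RLTR6-int to 0.53 and RLTR12D to -0.00216.

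Grouped by repeat type, no member of the lists passed apart from the 3 subfamilies above. Of 24 IAP subfamilies tested, 18 were above 0, with a median of 0.20, against 0.02 over all subfamilies. IAPEz-int, with the largest sum, had 19229, 7209 and 19816 in N2.2, against 9309, 7488, 7705, 6943 and 10983 in N2.1, with N2.2 B inside the N2.1 range (0.74, limma adjusted p = 0.58). The 5 VL30 subfamilies had a median of 0.68, with 4 above 0 and 3 at an unadjusted p under 0.05, against 57 of all 1004 tested subfamilies. The 12 youngest L1 subfamilies had a median of 0.13 with 10 above 0, and the 8 MMERGLN subfamilies of -0.15 with 2 above 0. RLTR4_MM-int of the leukaemia virus type stood at 0.28, MERVL-int at 0.10, B2_Mm2 at 0.08 and B1_Mm at 0.02. The sign of B1_Mm is not settled, since it was -0.01 with edgeR and DESeq2. The 15 B1 subfamilies spanned -0.03 to 0.09 and the 91 tested MaLR subfamilies had a median of 0.03.

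Lists of host genes held no called member: of 80 genes tested over all lists, 0 passed with limma, 0 with edgeR and 0 with DESeq2. An unadjusted limma p under 0.05 was found for 8 of the 80, against 619 of all 7388 tested genes. Of 30 interferon response genes tested, 6 were above 0, with a median of -0.38, against 0.00 over all genes, and N2.1 B held the highest sum of that list. The list of repeat silencing genes, whose products add DNA or histone methylation over repeats, had 16 members tested, 6 above 0 and a median of -0.11. Pphln1, a subunit of the HUSH silencing complex, had 979, 1051 and 1036 in N2.2, against 694, 747, 773, 710.2 and 694 in N2.1, with no overlap (0.50, limma adjusted p = 0.222). Setdb1 (-0.11), Trim28 (-0.29) and Dnmt1 (-0.32), core parts of that system, had adjusted p of 0.975 to 0.99. Of 11 cell cycle genes tested 6 were above 0, with a median of 0.01. Igf2, an imprinted growth factor, had 13.8, 125 and 15.7 in N2.2, against 16.8, 17.4, 0, 7.95 and 0 in N2.1, which overlap (2.67, adjusted p = 0.385). The melanocytic markers Gpnmb (-0.90) and Met (-0.67) had 27.2 to 54.0 and 105 to 150.4 in N2.2, against 62.4 to 80.4 and 159.9 to 315 in N2.1, with adjusted p of 0.576 and 0.648.

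Calls were uneven along the genome. Chromosome 4 held 12 of the 37 called copies, and its part beyond 130 Mb held 10 of them, 9 of which rose, against 764 of the 33215 tested copies. The Padi2, Ncmap, Zfp978 and Zfp979 copies, the VL30 pair and the B1_Mur2 copy beside that pair, which rose by 4.22, lie in that stretch. Neighbouring copies recur among the 10, with 2 in Padi2, 2 at Ncmap and 3 at the VL30 site, so they are not independent. The 130 Mb limit was not planned and was set for this chromosome only, so these counts are no test of the stretch. The median log2 fold change over those 764 copies was 0.09.

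Chromosome 15 shifted without single copies being called. The shift is the median, over exon copies of a chromosome, of the deviation from the mean of all libraries, relative to the other chromosomes. It was 0.26, 0.23 and 0.27 (log2) in N2.2 A, B and C, against -0.12, -0.17, -0.12, -0.12 and -0.03 in N2.1 A to E. All N2.2 tumours were above all N2.1 tumours. The difference of 0.36 had an exact permutation p of 0.0357, the smallest possible here, and an adjusted p of 0.357 over 20 chromosomes. Chromosome 17 had the same exact and adjusted p in the other direction, with a smaller difference of -0.083. Its shift was 0.013 to 0.026 in N2.2, against 0.055 to 0.150 in N2.1, again without overlap. Of the 1243 tested copies on chromosome 15, 949 (76.3%) were above 0, against 49.0% on the other chromosomes. Limma called 0 of them, edgeR 1 and DESeq2 6. An unadjusted limma p under 0.05 was found for 169 of the 1243, against 2081 of all 33215 tested copies. The medians were 0.37 for copies in introns, 0.37 in coding exons, 0.36 in 3' UTRs, 0.38 between genes and 0.23 in the 183 copies in noncoding exons. They were small over the first 40 Mb, at 0.06 for 0 to 20 Mb and 0.02 for 20 to 40 Mb, and larger beyond, at 0.27, 0.37, 0.43 and 0.43 in the next bins of 20 Mb. Cela1, Senp1 and Rbx1, the 3 called genes of chromosome 15, all rose and all lie beyond 80 Mb, among 209 of 265 genes of the chromosome that were above 0. In F2 the shift was -0.23 to -0.14, and in N2.3 it was 0.12, 0.09 and -0.48. DNA was not measured in these files.

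**Figure D4:**
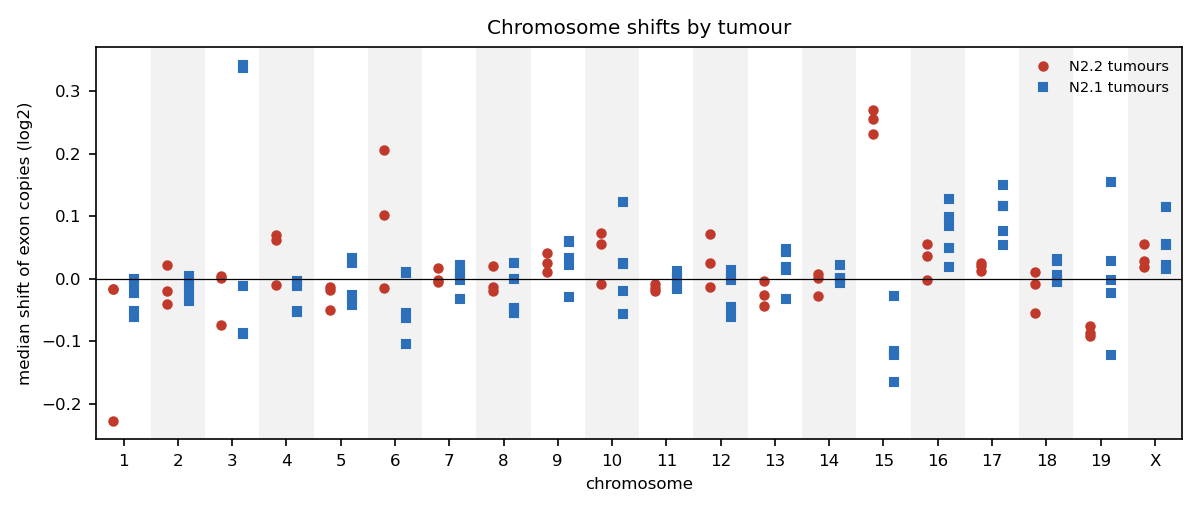
For each chromosome the points give the median shift (log2) of exon copies in the 3 N2.2 tumours (red circles, left) and the 5 N2.1 tumours (blue squares, right). On chromosome 15 the N2.2 tumours sit at 0.23 to 0.27, above all N2.1 tumours, and on chromosome 3 the N2.1 C and E tumours sit at 0.34, above the other 6.

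Set beside the passages before and after, the called genes did not follow a single course. N2.1 served as the later step against F2 and as the earlier step here, so the values are given side by side only. Cachd1 had 91.8 to 127 in F2, 12.3 to 69.2 in N2.1, 2.09 to 4.61 in N2.2 and 13.6 to 34.8 in N2.3. Padi2 had 2.73 to 17.2 in F2, 8.40 to 15.9 in N2.1, 94.0 to 166 in N2.2 and 299 to 416 in N2.3. Its N2.3 values are the highest of these 4 groups. Ociad2 had 113 to 344 in F2, 5.30 to 104 in N2.1, 0 to 1.67 in N2.2 and 0.847, 1.58 and 111 in N2.3, with N2.3 C just below the F2 range. Phactr2 likewise had 0, 0 and 88.6 in N2.3. Hspa4l had 500.1 to 956 in F2, 679 to 943 in N2.1, 1236 to 1679 in N2.2 and 472 to 749.8 in N2.3, so the high values were those of N2.2.

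**Figure D5:**
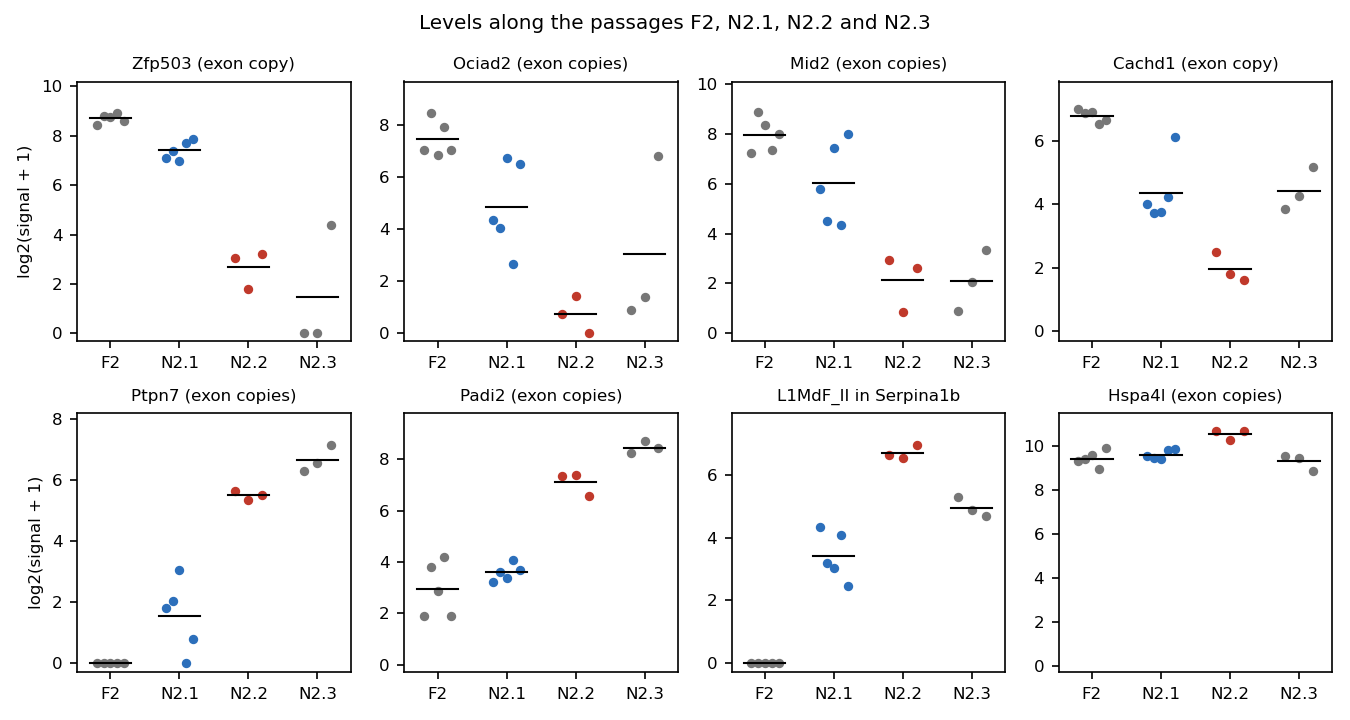
Panels show log2(signal + 1) of 7 host genes and of the L1MdF_II copy in Serpina1b in the F2, N2.1 (blue), N2.2 (red) and N2.3 tumours, in passage order; points are tumours and bars are means. Zfp503, Mid2 and Ociad2 are low in N2.2, Ptpn7 and Padi2 are higher in N2.2 and N2.3 than in F2 and N2.1, and Hspa4l is highest in N2.2.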

How the data were processed

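The deposited signal is normalised reads per repeat copy. The values show that the authors scaled the reads of each library by a single factor (100% of values came within 0.1 of a whole read), whose origin is not stated in the sources used here. Among the tools that the submitters' processing notes list, without roles, are featureCounts 1.5.0-p3, HISAT2 2.0.5 and StringTie 1.3.3b, with the build mm10. The labels' protocols mention directional and non-directional libraries, so use of strand is unknown, as is the handling of multi-mapping reads.

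Copies, subfamily sums and host gene sums (copies overlapping exons of GENCODE M21, bedtools 2.31.1) with a mean of at least 5 over the 40 samples were tested: 33215 of 835636 copies (83.7% of the signal), 1004 of 1237 subfamilies and 7388 of 18128 genes. Log2(signal + 1) was fitted with limma 3.58.1 in R 4.3.3, with 1 mean per group over 11 groups, a trended prior and two-sided Benjamini-Hochberg adjustment within each kind of feature. Log2 fold changes are on this scale, which understates those of low features. The limma p-values rest on the spread within all 11 groups, pooled. These include cultures of the parental YUMM1.7 cells and repeat libraries of the Balb/c-2 tumours. No p-value covers the spread between repeats of a whole passage. Subfamily sums depend on the copies' depth, and floors of 3 reads cover counting error only. Shares and chromosome shifts (exon copies with a mean of at least 20) were tested with exact permutation tests, which go no lower than 0.0357. The main limma fit of copies was checked on simulated data, and the other tests were not. Alternatives included TMM scaling, edgeR 4.0.16 and DESeq2 1.42.0 on the recovered reads. Tables and plots used Python 3.11.15, pandas 2.3.3, numpy 2.4.6, scipy 1.17.1 and matplotlib 3.10.9.

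The labels do not assign samples to the sequencing batches, so batch was not a term. Tumour letters name different tumours and did not pair samples. Members and lists were chosen with earlier results of these data known. The text names the 12 highest and 12 lowest copies and 10 highest and 10 lowest genes among called features whose groups do not overlap. It also names up to 8 called subfamilies in each direction and the 2 most abundant subfamilies of each list. The called subfamilies were filled to 6 in each direction with those not passing, by the smallest unadjusted p. Only subfamilies whose groups do not overlap were used to fill. Features named beyond these were chosen after their values were seen.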

Additional observations from a re-analysis of the deposited data

Results flagged for a closer look

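In the 5 N2.1 tumours, the gap between the highest or lowest tumour and its nearest neighbour was set against the group's whole range, and values above 0.71 are listed here. Of 242 values looked at, 26 passed. A rate of about 1 in 20 by chance holds only for independent, normally distributed values. Some values here rest on 1 or 2 reads and some repeat others, such as Cachd1 and its copy, so that rate does not apply. N2.1 B gave 12 of the 26, N2.1 A 5, N2.1 C 4, N2.1 E 3 and N2.1 D 2. The 3 N2.2 tumours are too few for such a check.

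N2.1 B stood apart in host genes and sums. It was high in the fibroblast-associated receptors Pdgfra (ratio 0.873; 1171 against 236 to 355 in the others) and Pdgfrb (0.726; 1588 against 391.8 to 719.6), and in the interferon response genes Oasl1 (0.725), Mx1 (0.842; 217 against 3.12 to 36.95), Rsad2 (0.795; 195 against 1.77 to 41.4), Irgm1 (0.748) and Trim25 (0.727). The chaperone Hspa5 (0.757) and the ancient SINE MIR3 (0.757) were also high there. It was low in MMERGLN-int (0.753), in Lx9 (0.787) and in the share of noncoding exons (0.870; 9.47% against 11.1% to 11.3%). None of these genes or subfamilies was called between N2.2 and N2.1.

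N2.1 A was high in the VL30 copy at chr13:68297436-68301162 (0.917; 25.2 against 2.65 to 4.51), the B1_Mur2 copy of chromosome 4 (0.851), MLT1G1-int (0.741) and the shift of chromosome 14 (0.717), and low in Gm13111 (0.757). N2.1 C was high in the B1_Mus2 copy near Actb (1, resting on 1 read), the B1_Mur1 copy in Ptpn7 (0.803), the Lx8 copy in Ak5 (0.829; 157 against 61.8 to 78.1) and Met (0.716). N2.1 D was high in the L1MdF_I copy of chromosome 12 (1, resting on 2 reads) and in Dnmt3b (0.711). N2.1 E was high in Cachd1 and its RLTR20A4 copy (0.905 for both; 69.2 against 12.3 to 17.7) and low in Col4a2 (0.8004; 113 against 400.2 to 472).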

How the results depend on the processing

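Against 37 copies, 36 genes and 3 subfamilies called, the counts moved by over 1.5 times as follows. Fitting the 8 samples alone gave 17 copies and 14 genes, which include 10 of the 37 copies and 8 of the 36 genes. A pseudocount of 5 gave 76 copies and one of 0.5 gave 23 genes. No filter gave 1849 copies, 1792 of them higher. DESeq2 gave 81 copies, 74 genes and 6 subfamilies. Leaving out 1 library gave 17 to 50 copies, 4 to 45 genes and 0 to 3 subfamilies. N2.1 C and E left out together, chosen after seeing the data, gave 16 copies, 6 genes and 1 subfamily. Sums without called copies, also chosen then, gave 0 subfamilies (57 had an unadjusted p under 0.05 in the sums of all copies). Within 1.5 times, edgeR gave 40 copies, 40 genes and 4 subfamilies. With the tumour letter as a replicate block, 9 copies, 2 genes and 6 subfamilies were called. They include 1 of the 37 copies and 2 of the 36 genes. Letters correlated at 0.0625, 0.226 and 0.0372 (A, B, C), and not every sample correlated best with its own letter. The block gave an intergenic difference of 1.16 percentage points and a chromosome 15 difference of 0.39.

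Reversed signs were those of B1_Mm (-0.00343 to 0.055 without 1 library, -0.00771 with edgeR, -0.00978 with DESeq2) and, over copies outside exons alone, MuRRS-int (0.27), RLTR12D (-0.00216), RLTR6-int (0.53) and Tigger22N1 (0.020). The cause was not tested. The intergenic difference was 0.758 without MMVL30-int and 1.23 to 1.56 without 1 library, and that of chromosome 15 was 0.35 to 0.38 without 1 library, where fewer samples raise the smallest p the design allows. No called copy or gene reversed in any alternative. Calls of copies and genes near the floor of 3 reads are limited by depth.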
